A study of Saccharomyces cerevisiae with 24 samples.

Results

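The 41 genes described here encode the machinery that carries proteins by vesicle between the endoplasmic reticulum (ER) and the Golgi of budding yeast. They were picked by gene name and role, not by a cut on their values, but with earlier results of these data known. All 41 were among the 6210 genes kept for testing, out of 6576 genes on the array. They fall into 7 roles: the COPII coat with its GTPase (9 genes), the p24 family (8), other cargo receptors (6), SNAREs that act towards the Golgi (4), the COPI coat (7), SNAREs and their tether at the ER (5) and retrieval receptors (2).

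Newly made secretory proteins leave the ER in vesicles shaped by the COPII coat, whose assembly starts when Sec12 loads the GTPase Sar1 with GTP. Cargo receptors and p24 proteins span the membrane and link soluble or anchored cargo to that coat, and SNARE proteins then drive fusion with the Golgi. COPI vesicles run the other way and bring back receptors and escaped ER proteins, which Erd2 and Rer1 recognise. Ire1 is an ER membrane kinase and nuclease that splices HAC1 mRNA, and the Hac1 transcription factor made from it switches on the unfolded protein response.

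Total RNA from strain W303, Mat a, was measured on 24 one-colour arrays, in 8 groups of 3. All strains were Δire1 and carried a construct for IRE1 (called IRE1 cells) or for ire1ΔLD, which lacks the lumenal domain (called ΔLD cells). The promoter and copy number of these constructs are not given in the sources used here. Cells were grown in selective synthetic complete medium, and each type was sampled untreated, after 2 mM DTT for 1 hour, as Δire1Δopi3 cells, and as Δire1Δopi3 cells with 1 mM choline overnight. DTT reduces disulfide bonds and so disturbs folding in the ER, Opi3 methylates phospholipids on the way to phosphatidylcholine, and choline feeds a separate route to that lipid. Nothing in the labels says that the 3 replicates came from separate cultures, so p-values measure only the spread between these samples.

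Every member was read by 1 probe that was well above background on all 24 arrays, and none had a saturated spot. Each level is a log2 signal minus that of its array's 75th percentile, which lay between 6951 and 15890 signal units, and they were compared between groups for 1 gene at a time. A member was called, and is said to have risen or fallen, at an adjusted p under 0.05 in limma over 6210 genes. Genes with values given per array were picked from calls without overlap between the groups compared. Such lack of overlap is therefore no separate result in the comparison a gene was picked for. In these bulk samples, fewer cells carrying a transcript and less transcript per cell cannot be told apart. The number of arrays limits the precision, with a median standard error (SE) of 0.077 log2 units for a member's change and 0.11 for a difference between the strains.

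Several label checks bear on the groups. Of the 12 arrays labelled Δopi3, 5 gave OPI3 signal above background. Relative to untreated cells it stood at 31.0% in IRE1 Δopi3 replicate 3, 23.3% in ΔLD Δopi3 replicate 3 and 11.4% in IRE1 Δopi3 with choline replicate 3, and at 0.752% and 1.53% in replicate 2 of the IRE1 and ΔLD Δopi3 groups. The counts of called members in comparisons with Δopi3 cells are therefore also given without these arrays. That leaves 1 array in each Δopi3 group without choline, so the spread then comes from the other groups and the lone array is assumed to vary as they do. The IRE1 probe read 4.30-fold higher in untreated ΔLD than in untreated IRE1 cells. In ΔLD cells it was above background on 3 of 3 arrays in each group. Its mean there was -0.09 untreated, 0.28 with DTT, 0.66 in Δopi3 and 0.15 in Δopi3 with choline. In IRE1 cells, in the same order, the means were -2.19, -2.07, -2.30 and -2.08. The strains thus differed in IRE1 signal as well as in the lumenal domain, and the part of that signal in the results was not tested. The probe's position in the gene was not looked up here. The 4 markers of mating type a (STE2, MFA1, MFA2, BAR1) were above background on 24 of 24 arrays, as were STE3 and SAG1 of the 4 alpha markers, while MF(ALPHA)1 was above it on 12 and MF(ALPHA)2 on 4. The summed alpha marker signal was 0.138 to 0.159 times the 75th percentile in untreated IRE1 cells, 0.192 to 0.219 with DTT, 0.281 to 0.315 in Δopi3 and 0.128 to 0.132 with choline. The corresponding sums of the a markers were 5.87 to 6.73, 3.18 to 3.60, 1.88 to 3.84 and 6.18 to 7.32. In ΔLD cells, in the same order, the alpha markers summed to 0.143 to 0.171, 0.174 to 0.20, 0.256 to 0.269 and 0.142 to 0.164, and the a markers to 6.24 to 7.18, 3.29 to 3.54, 2.57 to 3.92 and 6.37 to 7.71. These sums moved with DTT and with the Δopi3 label in both strains, and their part in the results was not tested.

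Before any treatment, none of the 41 members differed between ΔLD and IRE1 cells by limma's adjusted p, and 0 had an unadjusted p under 0.05. Of all 6210 genes, 0.789% were called in that comparison and 343 had an unadjusted p under 0.05. The members' differences ranged from -0.11 to 0.15.

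With DTT, 35 of the 41 members rose and 2 fell in IRE1 cells, where 39.4% of all genes were called higher and 30.1% lower. Their median log2 change was 0.42, against 0.07 over all genes. In ΔLD cells 19 members rose and 3 fell (46.3% and 7.32%), with 38.1% of all genes called higher and 28.3% lower. The members' median there was 0.19 against 0.08. KAR2 (the ER chaperone BiP) and ERO1 (the ER disulfide oxidase) are given as reference levels of the unfolded protein response. With DTT they rose by 2.31 and 2.76 in IRE1 cells and by 1.34 and 1.04 in ΔLD cells. KAR2 had mean levels of 2.87 untreated, 5.18 with DTT and 5.10 in Δopi3 in IRE1 cells, and 2.73, 4.07 and 4.26 in ΔLD cells. ERO1 had 0.90, 3.66 and 3.42, and then 0.84, 1.89 and 2.58. In ΔLD cells both means were thus higher in Δopi3 than with DTT. The DTT effect was smaller in ΔLD than in IRE1 cells for 16 members by the interaction term of the model and larger for none (21 with the slide, which coincides with the replicate number, as a block), while 6.59% of all genes were called lower in that difference. Leaving out replicate 2 of every group brought the 16 to 6, and scaling to the median of the array's E1A control probes, which are designed for added control RNA, brought it to 0 with a median SE of 0.39 in place of 0.11. Scaling to the brighter E1A probes, chosen after seeing the data, gave 15, with the median of all genes at -0.49 in that difference in place of 0.04. Of all genes called with DTT, 56.6% were higher in IRE1 and 57.4% in ΔLD cells; these were 89.3% and 87.6% when scaled to the E1A median and 98.5% and 84.9% by the brighter probes. Of the genes called in the difference, 79.3% were lower, against 89.3% and 99.7% under those scalings.

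**Figure D1:**
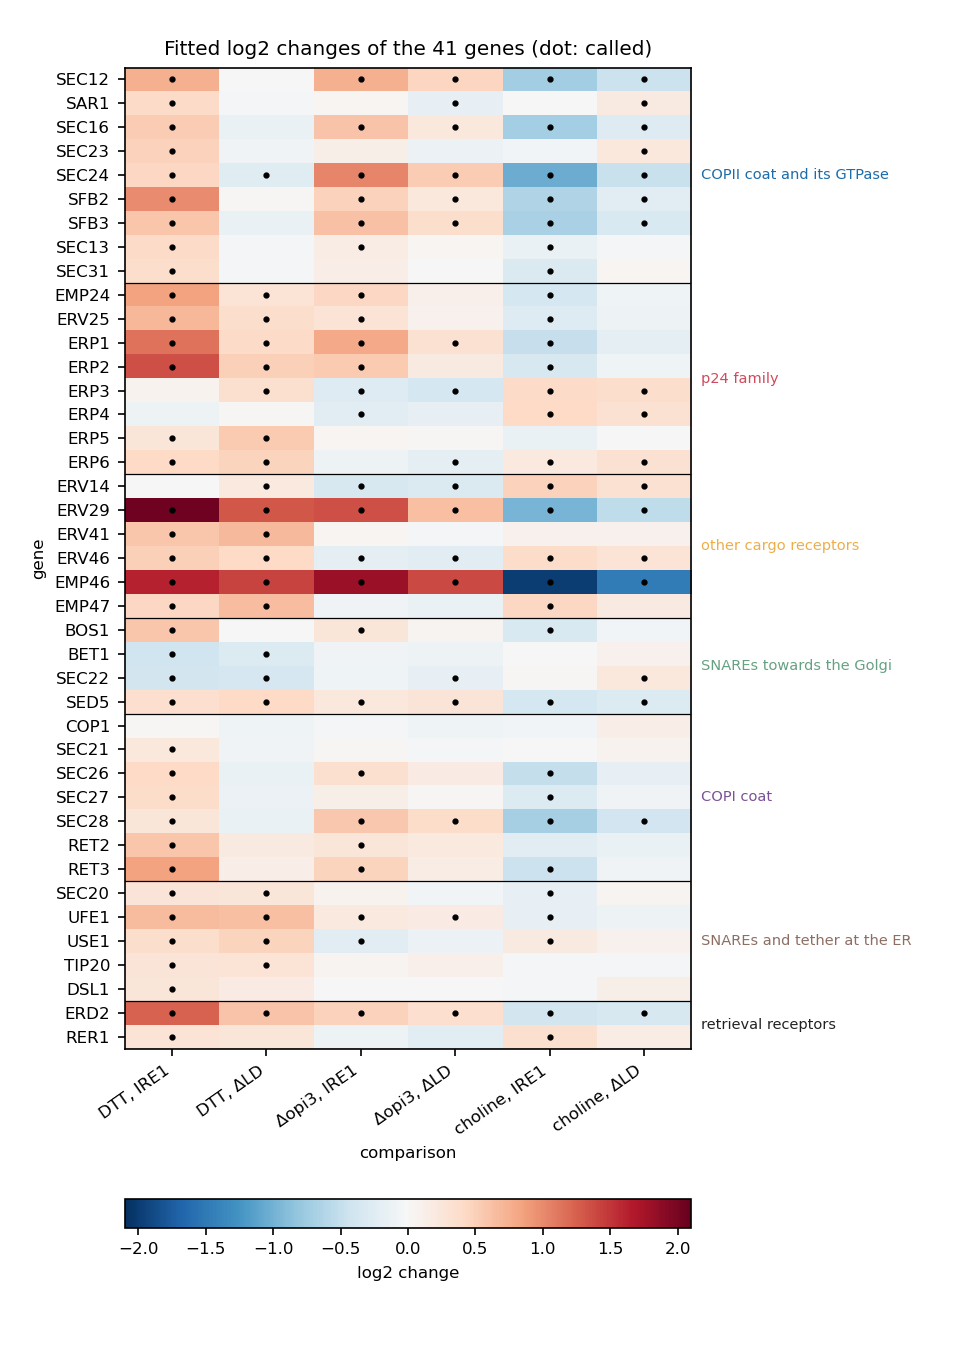
Fitted log2 changes of the 41 genes (rows, grouped by role) in 6 comparisons (columns): DTT against untreated, Δopi3 against untreated, and choline against none in Δopi3 cells, for each strain, with 3 arrays a group. Colour gives the log2 change on a scale from blue (lower) to red (higher) and a dot marks a called change. All 9 COPII rows carry a dot for DTT in IRE1 cells and only SEC24 does in ΔLD cells, where it is lower.

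In the COPII coat, DTT had different effects in the 2 strains. All 9 of its genes rose with DTT in IRE1 cells, by 0.36 to 1.00, where 39.4% of all genes were called higher. In ΔLD cells, where 38.1% of all genes were called higher, none rose and SEC24 fell. The other changes lay between -0.14 and 0.03. The difference was called for 8 of the 9, the exception being SEC31 (an outer coat subunit; difference -0.40, adjusted p = 0.211, and 0.0207 with the slide as a block). Under quantile normalization the 9 rises and the 8 differences were called too, but in ΔLD cells SAR1 was called higher at 0.32 in place of -0.03, and SEC12 lower at -0.20 beside SEC24. SEC31's own rise in IRE1 cells of 0.36 was lost without IRE1 DTT replicate 1 (adjusted p = 0.0518).

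SFB2 (YNL049C), a paralog of the cargo-binding subunit Sec24, read -1.15, -1.24 and -1.22 on the 3 untreated IRE1 arrays and -0.10, -0.13 and -0.38 with DTT. In ΔLD cells it read -1.29, -1.34 and -1.33 untreated and -1.16, -1.31 and -1.39 with DTT. The groups were thus apart in IRE1 cells and overlapped in ΔLD cells. The change was 1.00 (SE 0.08, 2.00-fold, adjusted p = 5.43e-09) against 0.03, and the difference of -0.97 had the lowest value among the members (SE 0.12, adjusted p = 1.25e-05).

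SEC12 (YNR026C), the exchange factor for Sar1, read -2.30, -2.31 and -2.40 in untreated IRE1 cells and -1.58, -1.46 and -1.71 with DTT. The ΔLD arrays read -2.34, -2.36 and -2.44 untreated and -2.39, -2.33 and -2.42 with DTT, again overlapping. The difference between the DTT effects was -0.76 (SE 0.10, adjusted p = 3.23e-05).

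SEC24 (YIL109C), the main cargo-binding subunit, moved in opposite directions. It read -0.09, -0.06 and -0.20 in untreated IRE1 cells and 0.36, 0.38 and 0.20 with DTT, a rise of 0.44 (adjusted p = 1.51e-05). In ΔLD cells it read -0.21, -0.12 and -0.16 untreated and -0.34, -0.43 and -0.50 with DTT, a change of -0.26 (adjusted p = 0.00235). Neither pair of groups overlapped, although the ΔLD value turned to 0.11 when scaled to the E1A median and to 0.09 by the brighter E1A probes.

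SFB3, another Sec24 paralog, rose by 0.59 in IRE1 cells and SEC16, a scaffold of the ER exit site, by 0.53. SEC23, which stimulates the GTPase of Sar1 and pairs with Sec24, rose by 0.48, and SAR1 and the outer coat subunit SEC13 by 0.40 each. Their ΔLD values of -0.14, -0.13, -0.08, -0.03 and -0.03 did not pass the test. Under both E1A scalings all 9 COPII genes were also called higher in IRE1 cells, and in ΔLD cells all 9 were positive with none called.

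The p24 family divided by gene. EMP24, ERV25, ERP1 and ERP2, whose products form a heteromeric p24 complex, rose in both strains: by 0.85, 0.69, 1.14 and 1.35 in IRE1 cells and by 0.29, 0.36, 0.40 and 0.51 in ΔLD cells. The smaller ΔLD effect was called for EMP24, ERP1 and ERP2, and for ERV25 the difference was -0.33 with an adjusted p of 0.0971. Of the remaining 4, whose roles are less well known, ERP5 and ERP6 rose in both strains and ERP3 rose in ΔLD cells (0.33), with no difference called. ERP5's rise of 0.26 in IRE1 cells was lost without untreated IRE1 replicate 2 (adjusted p = 0.0504) or IRE1 DTT replicate 3 (0.0540), and ERP3's without ΔLD DTT replicate 3 (0.0666).

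ERP2 (YAL007C) read -0.59, -0.59 and -0.53 in untreated IRE1 cells and 0.82, 0.61 and 0.91 with DTT. The ΔLD arrays read -0.48, -0.52 and -0.56 untreated and -0.14, -0.04 and 0.13 with DTT. Both strains' DTT arrays lay above their untreated arrays, and every ΔLD DTT array lay below every IRE1 DTT array. The difference was -0.85 (SE 0.13, adjusted p = 0.000285).

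ERP1 (YAR002C-A) read 0.54, 0.76 and 0.67 in untreated IRE1 cells and 1.80 on each of the 3 DTT arrays. In ΔLD cells it read 0.72, 0.74 and 0.61 untreated and 0.87, 1.23 and 1.17 with DTT. These groups did not overlap either, and the difference of the effects was -0.74 (SE 0.15, adjusted p = 0.00236).

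**Figure D2:**
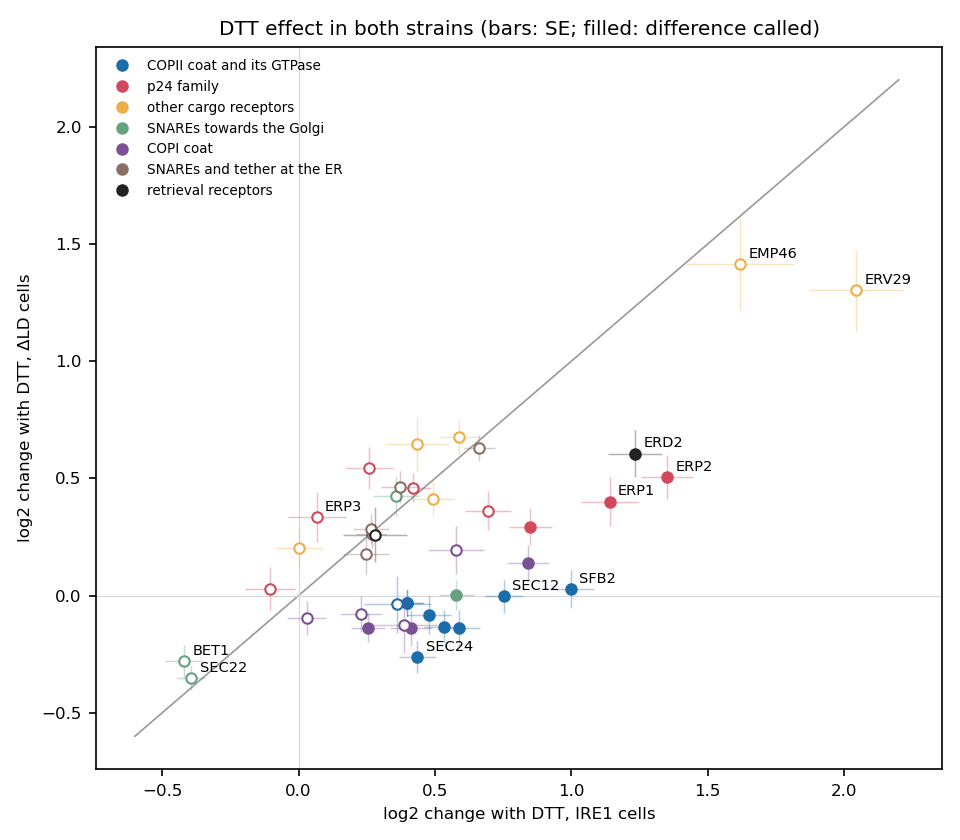
Log2 change with DTT in IRE1 cells (horizontal) against ΔLD cells (vertical), 1 point per gene, coloured by role, with bars of 1 SE and a grey line of equal change. Filled points mark the 16 genes whose change differed between the strains, and they lie below the line, with SFB2 at 1.00 and 0.03 and ERD2 at 1.23 and 0.61.

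Among the other cargo receptors, 5 of 6 rose in IRE1 and 6 of 6 in ΔLD cells, against 39.4% and 38.1% of all genes. No difference between strains was called for these 6. ERV14, the receptor for many membrane proteins, was the one not called in IRE1 cells. Its rise of 0.20 in ΔLD cells (adjusted p = 0.0475) was lost without any of 4 single arrays, with adjusted p-values of 0.0549 (untreated ΔLD replicate 2), 0.195 (untreated ΔLD replicate 3), 0.139 (ΔLD DTT replicate 2) and 0.157 (ΔLD DTT replicate 3).

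ERV29 (YGR284C), the receptor that packs soluble secretory proteins such as pro-alpha-factor, read -0.73, -0.57 and -0.84 in untreated IRE1 cells and 1.36, 1.25 and 1.39 with DTT. The ΔLD arrays read -0.60, -0.50 and -0.77 untreated and 0.45, 0.80 and 0.79 with DTT. Untreated and treated arrays were far apart in both strains, with changes of 2.04 (SE 0.17, 4.13-fold, adjusted p = 7.5e-09) and 1.30 (2.47-fold, adjusted p = 2.76e-06). The difference of -0.74 did not pass the test (95% interval -1.25 to -0.23, adjusted p = 0.0711), and it passed with the slide as a block (0.0231) and under quantile normalization (-0.81, 0.0486).

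EMP46 (YLR080W), a lectin-like receptor for glycoproteins, read -3.74, -3.73 and -3.59 in untreated IRE1 cells and -2.27, -2.06 and -1.88 with DTT. In ΔLD cells it read -3.65, -3.75 and -3.70 untreated and -2.47, -2.32 and -2.07 with DTT. The rises of 1.62 (SE 0.20, adjusted p = 7.95e-07) and 1.41 (adjusted p = 4.76e-06) differed by -0.20, with a 95% interval of -0.79 to 0.38. Its paralog EMP47 (YFL048C) read -0.51, -0.34 and -0.45 untreated and -0.07, -0.11 and 0.18 with DTT in IRE1 cells, and -0.22, -0.23 and -0.40 untreated and 0.18, 0.42 and 0.49 with DTT in ΔLD cells. EMP47 rose by 0.43 and 0.65, without overlap in either strain.

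ERV41 (YML067C), which with Erv46 forms a receptor that returns some ER proteins, read 0.72, 0.78 and 0.79 in untreated IRE1 cells and 1.31, 1.30 and 1.45 with DTT. The ΔLD arrays read 0.78, 0.78 and 0.63 untreated and 1.26, 1.48 and 1.48 with DTT. The changes of 0.59 and 0.68 (SE 0.07, adjusted p = 7.59e-07 and 1.99e-07) differed by 0.09, with a 95% interval of -0.12 to 0.30. ERV46 rose by 0.49 and 0.41.

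The SNAREs of the Golgi-bound step did not move together. BOS1 rose by 0.58 in IRE1 cells against 0.00 in ΔLD cells (difference -0.58, adjusted p = 0.000285), and SED5, the Golgi syntaxin, rose by 0.36 and 0.42. BET1 fell by 0.42 and 0.28 and SEC22 by 0.39 and 0.35, the only members called lower with DTT in both strains. Relative to the E1A median, where the median of all genes was 0.53 in IRE1 and 0.45 in ΔLD cells, these falls turned to 0.03 and 0.10 for BET1 and 0.06 and 0.02 for SEC22, and by the brighter probes they were 0.46 and 0.07 for BET1 and 0.49 and 0.00 for SEC22.

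Most COPI subunits also moved in IRE1 cells. There, 6 of 7 subunits rose, against 39.4% of all genes, the exception being COP1 (0.03). In ΔLD cells, where 38.1% of all genes were called higher and 28.3% lower, 0 of 7 subunits were called by limma. The subunits' changes there ran from -0.14 to 0.19, and all 7 were positive under both E1A scalings. Quantile normalization called RET2 (0.36) and RET3 (0.19) higher in ΔLD cells. The difference was called for RET3, SEC26 and SEC28, at -0.70, -0.55 and -0.39, and was -0.51 for SEC27 (adjusted p = 0.0727), -0.38 for RET2 (0.132) and -0.31 for SEC21 (0.0930). Quantile normalization called 6 of the 7 in this difference, adding SEC27 (adjusted p = 0.0441), RET2 (0.0288) and SEC21 (0.0412), and the slide as a block called these 3 as well. The rise of SEC21 by 0.23 was lost without IRE1 DTT replicate 1 (adjusted p = 0.0715) or untreated IRE1 replicate 3 (0.0663).

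RET3 (YPL010W), the zeta subunit, read 0.97, 0.77 and 0.68 in untreated IRE1 cells and 1.71, 1.65 and 1.58 with DTT. The ΔLD arrays read 0.71, 0.75 and 0.75 untreated and 0.96, 0.88 and 0.80 with DTT. The ΔLD groups did not overlap, yet the change of 0.14 was not called (adjusted p = 0.112), against 0.84 in IRE1 cells (adjusted p = 1.83e-08).

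The ER SNAREs and their tether, which receive COPI vesicles, rose in IRE1 cells in 5 of 5 cases and in ΔLD cells in 4 of 5. Of all genes, 39.4% and 38.1% were called higher with DTT in these strains. UFE1, the ER syntaxin, rose by 0.66 and 0.63, USE1 by 0.37 and 0.46, TIP20 by 0.27 and 0.28 and SEC20 by 0.27 and 0.26. The tether subunit DSL1 rose by 0.25 in IRE1 cells, a call lost without untreated IRE1 replicate 2 (adjusted p = 0.0678), and stood at 0.18 in ΔLD cells. Under quantile normalization UFE1 and USE1 alone were called, in both strains, and in IRE1 cells TIP20, SEC20 and DSL1 stood at 0.11, 0.10 and 0.04. No strain difference was called for these 5, which ranged from -0.07 to 0.09.

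ERD2 (YBL040C), the receptor that returns HDEL-tagged ER proteins, read 1.80, 1.63 and 1.62 in untreated IRE1 cells and 2.93, 2.94 and 2.87 with DTT. The ΔLD arrays read 1.70, 1.60 and 1.52 untreated and 2.19, 2.19 and 2.25 with DTT. Treated arrays lay above untreated ones in both strains, and the rise of 1.23 in IRE1 cells (SE 0.10, adjusted p = 4.31e-09) exceeded that of 0.61 in ΔLD cells (difference -0.63, adjusted p = 0.00639). RER1, which retrieves membrane proteins, rose by 0.28 in IRE1 cells (adjusted p = 0.0390) and stood at 0.26 in ΔLD cells. That call was lost without any of 4 arrays, untreated IRE1 replicates 1 and 3 (adjusted p = 0.0622 and 0.127) and IRE1 DTT replicates 2 and 3 (0.0828 and 0.119).

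**Figure D3:**
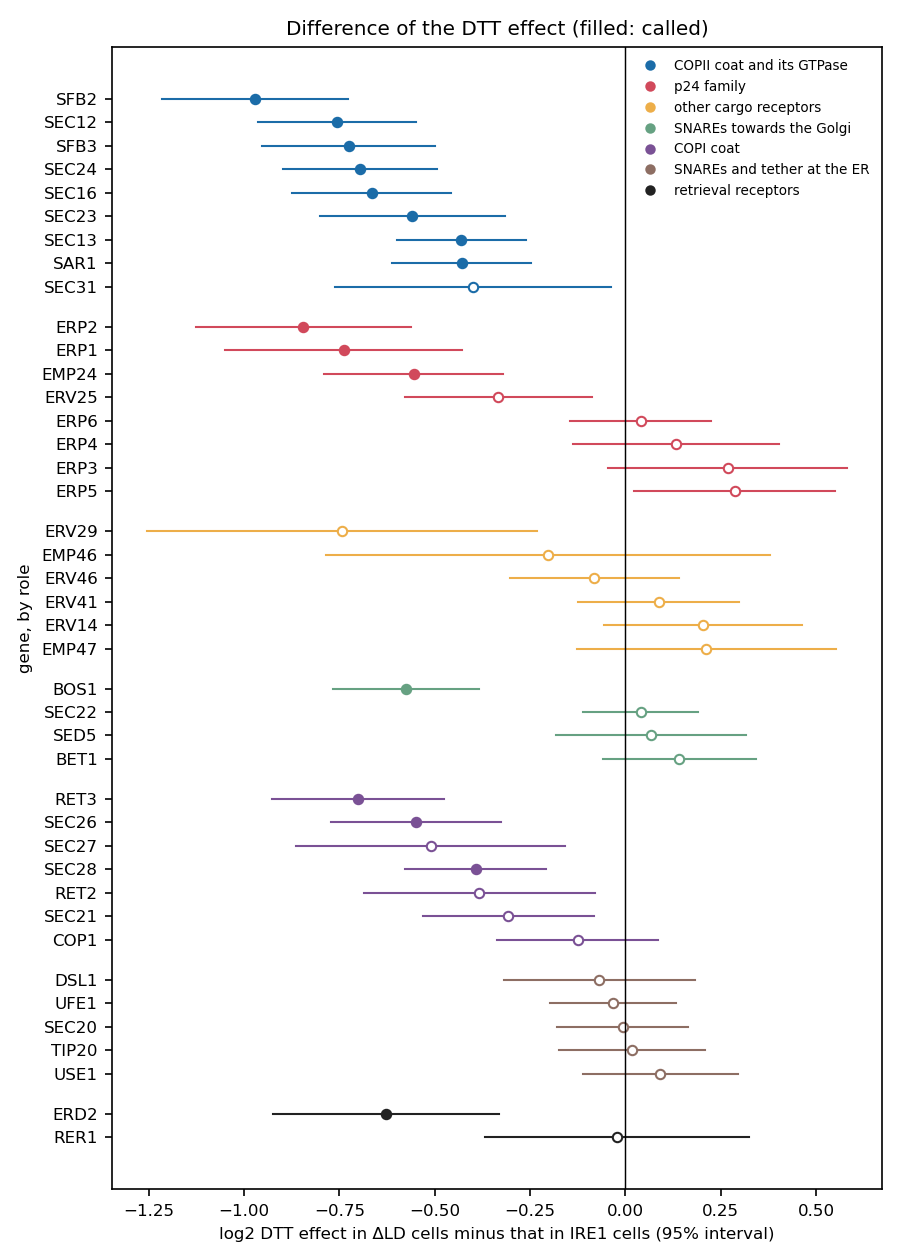
Difference of the DTT effect, ΔLD minus IRE1 cells, in log2 units with its 95% interval, for each gene by role (filled: called). COPII differences run from -0.97 for SFB2 to -0.40 for SEC31, while those of the ER SNAREs and tether lie between -0.07 and 0.09.

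In Δopi3 cells fewer members were called. In IRE1 cells 20 rose and 5 fell (48.8% and 12.2%), with 32.2% of all genes higher and 35.1% lower. The member median was 0.14 against -0.02 over all genes. In ΔLD cells 12 rose and 6 fell (29.3% and 14.6%), with 29.2% of all genes higher and 27.3% lower. The share that rose there was thus near that of all genes, and the member median was 0.03 against 0.00. The 12 that rose in ΔLD cells were among the 20 that rose in IRE1 cells (12 of 12 and 12 of 20). The matching overlap over all genes was not counted, so whether this is particular to the members is not known. The Δopi3 and DTT effects of a strain share its untreated arrays, so their values are set side by side only. Without the arrays that carried OPI3 signal, the counts were 20 and 3 in IRE1 cells and 12 and 5 in ΔLD cells, of partly different genes. The calls of ERP3, RET2, UFE1 and USE1 in IRE1 cells and of ERP1, ERP6, SAR1 and SEC22 in ΔLD cells were then lost, while SEC27 and SEC31 were gained in IRE1 cells and EMP47, RER1 and SEC26 in ΔLD cells. Without replicate 2 of every group the totals of 25 and 18 fell to 15 and 6, and scaled to the E1A median they were 13 and 3, all of them rises. Of all genes called, 47.8% were higher in IRE1 and 51.7% in ΔLD cells, against 93.2% and 94.4% when scaled to the E1A median, 85.5% and 72.5% by the brighter probes, and 40.2% and 41.2% under quantile normalization.

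EMP46 read -1.50, -1.61 and -2.52 on the IRE1 Δopi3 arrays and -2.24, -2.23 and -2.47 on the ΔLD Δopi3 arrays, all above the untreated arrays of the same strain given earlier. The change was 1.81 in IRE1 cells (SE 0.20, 3.5-fold, adjusted p = 2.49e-07) and 1.39 in ΔLD cells (2.62-fold, adjusted p = 1.08e-05). ERV29 read 0.60, 1.09 and 0.23 in IRE1 and -0.26, 0.32 and -0.04 in ΔLD Δopi3 cells, again clear of the untreated arrays. Its rises of 1.35 (adjusted p = 1.83e-06) and 0.63 (adjusted p = 0.0046) differed by -0.72, which was not called (95% interval -1.23 to -0.21, adjusted p = 0.113). The lowest IRE1 Δopi3 values of both genes, -2.52 and 0.23, came from replicate 3, which kept 31.0% of untreated OPI3 signal. In ΔLD cells replicate 3 was lowest for EMP46 and not for ERV29. The part of that signal in these changes was not tested.

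SEC24 read 0.91, 1.01 and 0.83 on the IRE1 Δopi3 arrays, above every other array of the series, and 0.32, 0.38 and 0.39 on the ΔLD Δopi3 arrays. It rose by 1.03 (SE 0.07, 2.04-fold, adjusted p = 2.58e-10) and by 0.53 (adjusted p = 3.68e-06). SEC12 read -1.52, -1.48 and -1.76 in IRE1 and -1.87, -1.89 and -2.00 in ΔLD Δopi3 cells, rises of 0.75 and 0.46 (adjusted p = 3.13e-08 and 2.8e-05). Neither gene's Δopi3 arrays overlapped the untreated arrays. ERP1 read 1.47, 1.67 and 1.22 in IRE1 Δopi3 cells, a rise of 0.79 (adjusted p = 2.77e-06), and 0.95, 1.11 and 0.96 in ΔLD Δopi3 cells, a rise of 0.32 (adjusted p = 0.0154). The ΔLD call of ERP1 was lost without ΔLD Δopi3 replicate 2 (adjusted p = 0.0698) or untreated ΔLD replicate 3 (0.0583).

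By role, 6 of 9 COPII genes rose in IRE1 cells (SEC12, SEC16, SEC24, SFB2, SFB3 and SEC13), and 5 of them, without SEC13, rose in ΔLD cells. For these and the other roles, the share of all genes called higher was 32.2% in IRE1 and 29.2% in ΔLD Δopi3 cells. SAR1, which stood at 0.05 in IRE1 cells, fell by 0.17 in ΔLD cells, a value of 0.07 when scaled to the E1A median and 0.12 under quantile normalization. Of the p24 genes, EMP24, ERV25, ERP1 and ERP2 rose in IRE1 cells while ERP3 and ERP4 fell by 0.27 and 0.23, falls that stood at 0.06 and 0.10 when scaled to the E1A median. ERV14 fell by 0.34 and 0.30 in the 2 strains and ERV46 by 0.19 and 0.23, and scaled to the E1A median ERV46 stood at 0.14 and 0.01. COPI genes rose in 4 of 7 cases in IRE1 cells (RET2, RET3, SEC26 and SEC28) and SEC28 alone rose in ΔLD cells, where quantile normalization also called RET2 (0.34), RET3 (0.24) and SEC26 (0.28). UFE1 and SED5 rose in both strains, calls that quantile normalization ended in both, USE1 fell by 0.23 in IRE1 cells (0.10 when scaled to the E1A median), and ERD2 rose by 0.49 and 0.35.

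Several of these smaller Δopi3 calls rested on single arrays. In IRE1 cells leaving out 1 array ended the calls of ERP3, ERP4, ERV46, RET2, SEC13 and SED5, with adjusted p-values of up to 0.251. In ΔLD cells it ended those of ERP1, ERV46, SAR1, SEC16, SED5, SFB2 and UFE1, with adjusted p-values of up to 0.133. In both strains each of the 6 arrays compared ended at least 1 of these calls.

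The Δopi3 effect was smaller in ΔLD than in IRE1 cells for SEC24 (difference -0.50, SE 0.10, adjusted p = 0.00345) and SEC16 (-0.38, SE 0.10, adjusted p = 0.0360). Of all genes, 2.32% were called lower in that difference. An unadjusted p under 0.05 was found for 13 of the 41 members and for 1042 of all 6210 genes. SEC16 read -0.46, -0.50 and -0.35 in untreated and 0.30, 0.14 and 0.05 in Δopi3 IRE1 cells, against -0.45, -0.45 and -0.49 and then -0.10, -0.29 and -0.34 in ΔLD cells. Both strains' groups were apart, with a wider gap in IRE1 cells. The SEC16 call was lost without any of 9 single arrays, with adjusted p-values of up to 0.103, and without IRE1 Δopi3 replicate 3, one of the arrays with OPI3 signal, 11 members were called. Without the arrays with OPI3 signal SEC24 and ERV29 were called, and SEC16 was not (adjusted p = 0.0958). With the slide as a block 7 were called, which added ERP1, ERV29, RET3, SEC12 and SFB2, and within the 3 slides the difference of SEC24 was -0.47, -0.57 and -0.48 and that of SEC16 -0.41, -0.48 and -0.24. Leaving out replicate 1 or 2 of every group gave 0, and the fit to the compared groups alone gave 1. Neither E1A scaling called any member.

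**Figure D4:**
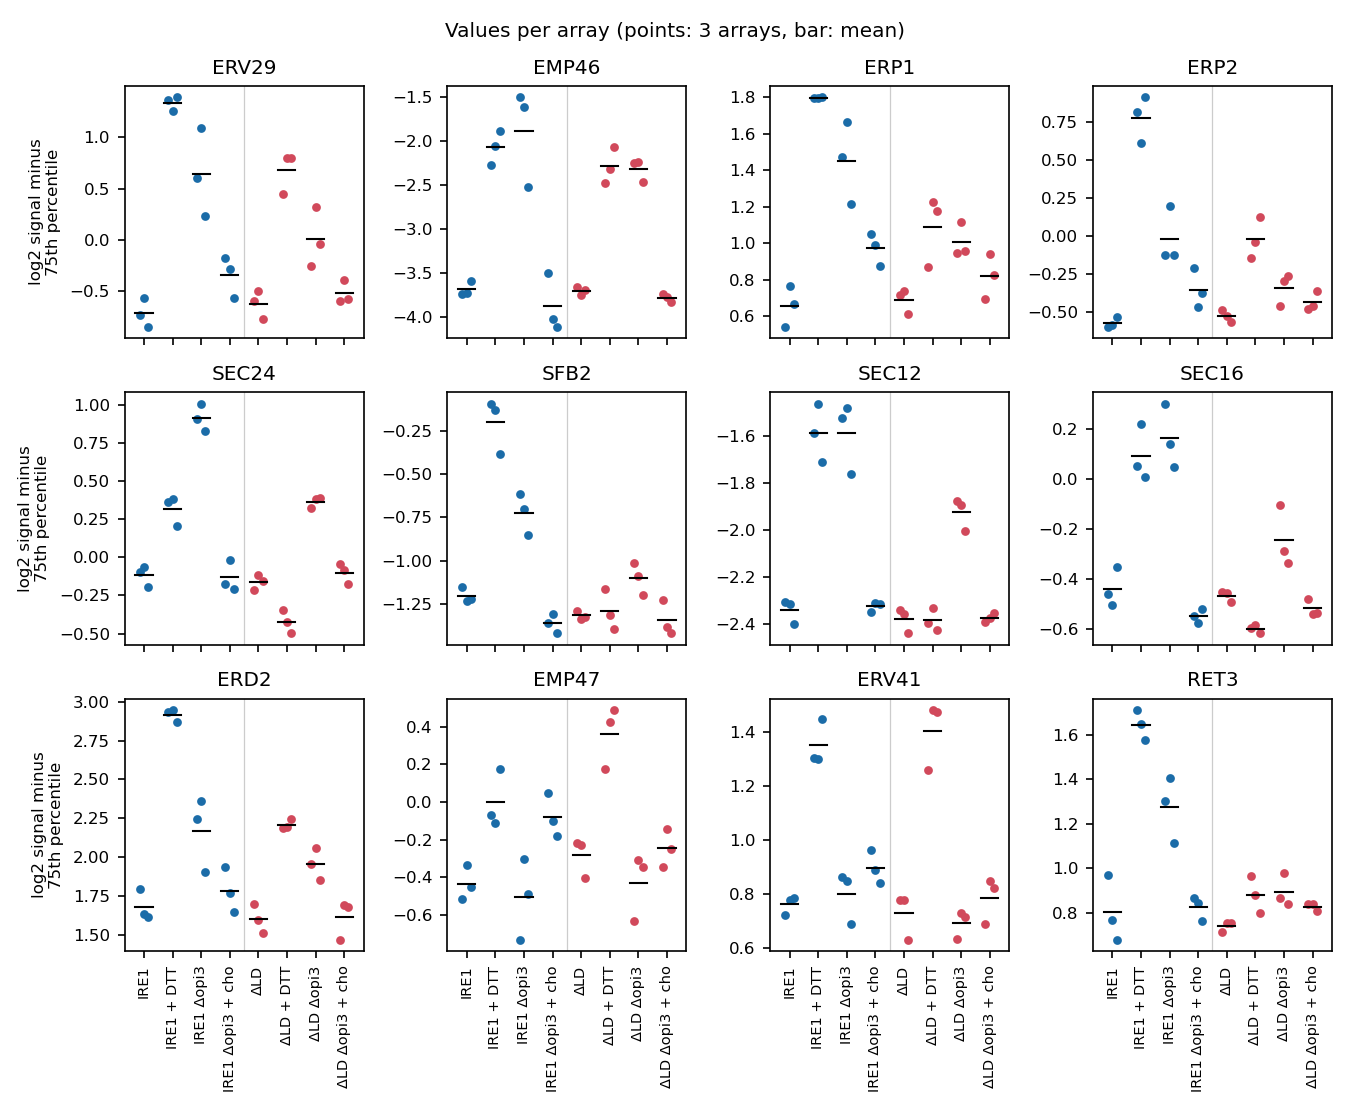
Level of 12 genes on each of the 24 arrays, as log2 signal minus the array's 75th percentile, with IRE1 cells in blue, ΔLD cells in red and a bar at the mean of 3 arrays. Each panel has its own vertical range. SEC24 lies highest on the IRE1 Δopi3 arrays (0.83 to 1.01), and ERD2 on the IRE1 DTT arrays (2.87 to 2.94).

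With choline, 22 members fell and 8 rose in IRE1 Δopi3 cells (53.7% and 19.5%), with 36.3% of all genes lower and 34% higher. In ΔLD Δopi3 cells, where 27.8% of all genes were called higher and 32.2% lower, 10 members fell and 8 rose (24.4% and 19.5%). Without the arrays with OPI3 signal 17 fell and 6 rose in IRE1 cells, and 11 fell and 8 rose in ΔLD cells. The Δopi3 arrays enter both these effects and the Δopi3 effects with opposite sign, so the directions are not independent. EMP46 read -3.49, -4.03 and -4.11 in IRE1 and -3.74, -3.77 and -3.83 in ΔLD cells with choline, falling by 2.00 and 1.47 (adjusted p = 5.58e-08 and 5.84e-06). SEC24 read -0.18, -0.01 and -0.21 in IRE1 and -0.04, -0.08 and -0.17 in ΔLD cells, falling by 1.05 and 0.47. Both genes lay below all Δopi3 arrays of the same strain, which was a condition for picking them.

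ERV29 read -0.18, -0.28 and -0.56 in IRE1 and -0.60, -0.38 and -0.57 in ΔLD cells with choline. It fell by 0.98 (adjusted p = 6.02e-05) and 0.53 (adjusted p = 0.0135), and in both strains the choline arrays lay below the Δopi3 arrays. Single arrays ended 9 choline calls in IRE1 cells (ERP6, ERV25, RER1, SEC13, SEC20, SEC27, SEC31, UFE1 and USE1), with adjusted p-values of up to 0.282. In ΔLD cells they ended 5 (ERV29, SAR1, SEC23, SED5 and SFB2), with adjusted p-values of up to 0.156. Without replicate 2 of every group the 18 calls in ΔLD cells fell to 7. By the brighter E1A probes SEC13, SEC20 and UFE1, called lower in IRE1 cells, stood at 0.08, 0.04 and 0.04, and under quantile normalization SAR1, called higher in ΔLD cells, stood at -0.09. Of all genes called, 48.4% were higher in IRE1 and 46.4% in ΔLD cells, against 59.1% and 59.5% under quantile normalization, 45.7% and 32.7% when scaled to the E1A median, and 63.5% and 50.8% by the brighter probes.

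The choline effect was less negative in ΔLD cells for SEC24 (0.58, adjusted p = 0.000644), SEC16 (0.44, adjusted p = 0.0106), SFB2 (0.40, adjusted p = 0.0466) and RET3 (0.38, adjusted p = 0.0381). Of all genes, 4.78% were called higher in that difference. An unadjusted p under 0.05 was found for 14 of the 41 members and for 1265 of all 6210 genes. SFB2 read -0.61, -0.70 and -0.85 without and -1.36, -1.31 and -1.42 with choline in IRE1 Δopi3 cells, and -1.01, -1.09 and -1.20 and then -1.23, -1.39 and -1.42 in ΔLD Δopi3 cells. RET3 went from 1.30, 1.41 and 1.12 to 0.87, 0.84 and 0.76 in IRE1 cells, and from 0.87, 0.98 and 0.84 to 0.84, 0.84 and 0.81 in ΔLD cells. SEC16 with choline read -0.55, -0.58 and -0.52 in IRE1 and -0.48, -0.54 and -0.53 in ΔLD cells. The drop was wider in IRE1 cells for each of the 4 genes. The calls of RET3 and SFB2 were lost without any of 9 single arrays each, 15 members were called without IRE1 Δopi3 replicate 3, and SEC24 alone was called without the arrays with OPI3 signal. With the slide as a block 11 were called, which added BOS1, SEC12, SEC20, SEC22, SEC26, SEC28 and SFB3, and within the 3 slides the difference of SEC24 was 0.72, 0.55 and 0.47. Leaving out replicate 1 or 2 of every group gave 0.

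Against untreated cells, Δopi3 cells with choline showed 0 called members in IRE1 cells by limma, where 2.22% of all genes were called. There, 6 of the 41 members and 1058 of all 6210 genes had an unadjusted p under 0.05. The largest change of a member was 0.37 for ERV29 (adjusted p = 0.279). In ΔLD cells 0 members were called and 0.515% of all genes were. An unadjusted p under 0.05 was found there for 0 members and for 389 of all 6210 genes. With the slide as a block EMP47 (0.36) and ERP1 (0.31) were called in IRE1 cells, and without the arrays with OPI3 signal ERV29 was (0.48).

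Δopi3 and DTT were also set against each other directly, within 1 strain. In IRE1 cells 27 members were lower in Δopi3 than in DTT and 4 were higher, with 33.6% of all genes lower and 25.2% higher, and without the arrays with OPI3 signal 25 were lower and 6 higher. ERP2 (-0.80, adjusted p = 9.18e-07), ERD2 (-0.75, adjusted p = 3.67e-06) and ERV29 (-0.69, adjusted p = 0.00208) had the largest differences by the naming rule. ERP2 read -0.12, 0.20 and -0.12 in IRE1 Δopi3 cells and ERD2 2.25, 2.36 and 1.90, all below the DTT arrays. The 4 higher in Δopi3 were SEC24 (0.60), BET1 (0.34), SEC22 (0.31) and SEC28 (0.31), and all 4 were negative by the brighter E1A probes, where 5.54% of all called genes were higher in place of 42.9%.

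In ΔLD cells 17 members were lower and 8 higher in Δopi3 than in DTT, with 31.9% of all genes lower and 30.4% higher, and without the arrays with OPI3 signal 15 were lower and 8 higher. EMP47 read -0.63, -0.31 and -0.34 in ΔLD Δopi3 cells, a difference from DTT of -0.79 (adjusted p = 9.32e-06), and ERV41 read 0.63, 0.73 and 0.72, a difference of -0.71 (adjusted p = 9.12e-08). SEC24 was higher by 0.79 (adjusted p = 1.39e-08). The Δopi3 arrays of each of these genes lay clear of the DTT arrays, which was a condition for picking them. The other 7 higher in Δopi3 were SEC12, SEC16, SFB3, SEC26, SEC28, BET1 and SEC22. By the brighter E1A probes, where 13.9% of all called genes were higher in place of 48.7%, SEC26, SEC16, BET1 and SEC22 turned negative, and no member was called higher under either E1A scaling. Leaving out 1 array ended the calls of DSL1, ERP1, ERP3, ERP5, RET2 and SEC21 in IRE1 cells and of BET1, EMP24, ERD2 and TIP20 in ΔLD cells, with adjusted p-values of up to 0.259 and 0.254.

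Over the 8 groups, DTT-treated IRE1 cells held the highest mean level of 22 members, DTT-treated ΔLD cells that of 11 and IRE1 Δopi3 cells that of 5. The same was not counted over all genes, so these numbers have no background to be read against. The widest spans between group means were those of ERV29 (2.04) and EMP46 (2.00), against median within-group SDs of 0.17 and 0.16 (n = 3).

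The rest of the pathway was counted over 37 other genes of ER and Golgi traffic. With DTT 22 rose and 4 fell in IRE1 cells (59.5% and 10.8%, against 39.4% and 30.1% of all genes), and 16 rose and 7 fell in ΔLD cells (43.2% and 18.9%, against 38.1% and 28.3%). The largest changes in IRE1 cells were those of ARF2 (0.81), SLY1 (0.68), SEC17 (0.68) and SFT1 (-0.65), and in ΔLD cells those of YIF1 (0.74), SVP26 (0.71), SFT1 (-0.62) and GSF2 (0.62). The ΔLD effect was smaller for 5 (13.5%, against 6.59% of all genes): ARF2 (a GTPase that recruits COPI, -0.66), SLY1 (a partner of the SNARE Sed5, -0.57), TRS130 (a TRAPP subunit, -0.52), GLO3 (a GTPase-activating protein for Arf, -0.51) and BUG1 (a cis-Golgi protein, -0.32). Of 10 COPII accessory and packaging factors, 7 rose in IRE1 cells and 8 in ΔLD cells, and none had a called strain difference by limma. In Δopi3 cells 11 of the 37 rose and 11 fell in IRE1 cells (29.7% each, against 32.2% and 35.1% of all genes), and 7 rose and 10 fell in ΔLD cells (18.9% and 27.0%, against 29.2% and 27.3%). TRS65, another TRAPP subunit, rose by 0.84 and 0.71 in the 2 strains, and GCS1, an Arf GTPase-activating protein, fell by 0.62 and 0.59. With choline 14 rose and 12 fell in IRE1 cells (37.8% and 32.4%, against 34% and 36.3% of all genes), and 10 rose and 8 fell in ΔLD cells (27.0% and 21.6%, against 27.8% and 32.2%).

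The authors' deposited table lists 4 of the 41 members, ERP1, ERP2, ERD2 and SEC24. For DTT in IRE1 cells the authors' deposited table gives 1.13, 1.34, 1.22 and 0.43. Its values for these genes lay within 0.014 of the log2 changes against untreated IRE1 cells computed here.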

How the data were processed

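Per the file headers, the authors scanned each array with Agilent Feature Extraction 10.7.1.1, and the deposited processed signal is an intensity with background subtracted, array by array. The authors deposited as well a log2 ratio table of selected genes, whose making is not given in the sources used here. Outlier spots were left out, intensities were put on a log2 scale, the array's 75th percentile was subtracted, and spots of a probe, then probes of a gene, were averaged. A gene was kept when a probe had over 50% of its spots well above background throughout 1 or more groups.

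One model of 8 group means was fitted to 24 arrays with limma 3.58.1 in R 4.3.3 (16 residual degrees of freedom). Two-sided p-values received Benjamini-Hochberg adjustment in each of 14 comparisons separately. The fit was tested on simulated data whose arrays varied independently, which cannot show how it handles a spread shared by a slide. Members and lists were chosen with earlier results of these data known. Values per array are given for the called members of largest change without overlap between groups: up to 4 in each DTT and Δopi3 effect and each strain difference, and up to 3 elsewhere. For a strain difference the condition was 1 sign in all 3 replicates. In the rest of the pathway, the largest called changes were named. Each replicate number is also 1 slide. Most but not all arrays of 1 number deviated together. Their deviations correlated over 0.1 in 19, 27 and 17 of 28 pairs for replicates 1, 2 and 3 (medians 0.24, 0.46 and 0.24). The main model leaves this shared spread in its residuals, and the replicate number was a block only as an alternative. The other alternatives were quantile normalization, scaling to E1A probes, normexp on median spot signals (mean signals were not used here), no filter, a 1.5-fold minimum, fewer groups in the fit and leaving out arrays. Sequences were not used here.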

Additional observations from a re-analysis of the deposited data

Results flagged for a closer look

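The following differences between ΔLD and IRE1 cells passed the model's interaction test. Each also kept its sign in all 3 pairs of same-numbered replicates. That is no separate support, since the test used the same arrays. In the DTT difference, 24 of the 41 members were lower and 6 higher with 1 sign in all 3 pairs, called or not. The same was not counted over all genes. All values listed below are log2 differences of an effect, ΔLD minus IRE1 cells. For the DTT effect, 16 genes were lower. In the COPII coat they were SFB2 at -0.97, SEC12 at -0.76, SFB3 at -0.73, SEC24 at -0.70, SEC16 at -0.67, SEC23 at -0.56, SEC13 at -0.43 and SAR1 at -0.43. In the p24 family they were ERP2 at -0.85, ERP1 at -0.74 and EMP24 at -0.56. In the COPI coat they were RET3 at -0.70, SEC26 at -0.55 and SEC28 at -0.39, and the SNARE BOS1 stood at -0.58 and the receptor ERD2 at -0.63. For the Δopi3 effect, SEC24 stood at -0.50 and SEC16 at -0.38. For the choline effect, SEC24 stood at 0.58, SEC16 at 0.44, SFB2 at 0.40 and RET3 at 0.38, and these share the Δopi3 arrays with the Δopi3 effect. With 3 arrays a group, no test for an outlying array was made.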

How the results depend on the processing

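Numbers of called members are given here against 37, 22, 25 and 18 (DTT in IRE1 and ΔLD cells, Δopi3 in IRE1 and ΔLD cells), 30 and 18 (choline in IRE1 and ΔLD), 31 and 25 (Δopi3 against DTT in IRE1 and ΔLD), and 16, 2 and 4 (strain differences of the DTT, Δopi3 and choline effects). A 1.5-fold minimum gave 13, 6, 7, 2, 8, 1, 6, 8, 9, 0 and 0 in that order. Scaled to the E1A median they were 35, 17, 13, 3, 3, 1, 4, 6, 0, 0 and 0, and by the brighter E1A probes, an alternative added after seeing the data, 39, 19, 13, 1, 8, 1, 36, 16, 15, 0 and 0. The E1A settings raised the members' median SE from 0.077 to 0.28 and 0.24. Fitting only the groups compared gave 1 for each of the Δopi3 and choline differences. With the replicate block the strain differences numbered 21, 7 and 11, and Δopi3 with choline against untreated IRE1 cells gave 2 in place of 0; the block changed no other of these totals by over 1.5 times. Without the arrays with OPI3 signal, that last comparison and the choline difference gave 1 each. Leaving out replicates gave 15 to 25 for Δopi3 in IRE1 cells, 6 to 18 in ΔLD cells, 7 to 18 for choline in ΔLD cells, 6 to 18 for the DTT difference, 0 to 11 for the Δopi3 difference and 0 to 15 for the choline difference. The cause of these changes was not tested. Of 706 values of the named members under alternatives, 624 kept their call, 82 lost it and 0 reversed. These members were picked for the largest called changes, so this does not extend to the other calls. Some smaller called changes did turn sign under E1A scaling, among them those of SEC24, BET1 and SEC22 with DTT in ΔLD cells. Quantile normalization, background correction by normexp (on median spot signals) and no filter on dim probes moved none of these totals over the 41 members by over 1.5 times. Within roles quantile normalization moved several counts by more, among them the ER SNAREs and tether with DTT (5 to 2 in IRE1 and 4 to 2 in ΔLD cells), COPI in the DTT difference (3 to 6) and COPI in ΔLD Δopi3 cells (1 to 4).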
